A study of Arabidopsis thaliana with 38 samples.

Results

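Transcript levels of 10 salicylic acid and defence marker genes were read in globular-stage seeds and in endosperm of imbibed seeds of *vel3-1* and Col-0 plants. The genes were taken by their locus identifiers, and all 10 are among the 26925 genes listed at each of these stages. They are *PR1* (AT2G14610), *PR2* (AT3G57260), *PR5* (AT1G75040), *PAD3* (AT3G26830), *PAD4* (AT3G52430), *EDS1* (AT3G48090), *EDS5* (AT4G39030), *SID2* (AT1G74710), *NPR1* (AT1G64280) and *FMO1* (AT1G19250). *vel3-1* is a T-DNA insertion allele of *VEL3*, a gene of the VIN3 family of Polycomb-associated proteins, in the Col-0 background, and Col-0 is the wild type. Plants of both genotypes were moved to 16 °C at first flowering, so cool seed set is shared by both groups. A globular sample is RNA of whole seeds pooled from several siliques, 8 days after pollination by the study's methods, and therefore holds embryo, endosperm and maternal seed coat together. A 24HAI sample is RNA of endosperm-enriched tissue from seeds imbibed for 24 h. Each genotype has 3 libraries at each stage, described as biological replicates, and the values are TPM, in which reads are scaled by gene length and library. TPM keep no read depth, so no counting interval is given. The other stage, mature endosperm after 1 h of imbibition, is represented by 640 selected genes, and 0 of the 10 genes are among them.

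In Arabidopsis leaves, salicylic acid is made after infection mainly from chorismate, which *SID2* (isochorismate synthase) converts to isochorismate in the chloroplast and *EDS5*, a membrane transporter, exports. The lipase-like proteins EDS1 and PAD4 act together upstream of this accumulation, *NPR1* encodes a salicylic acid receptor and transcriptional coactivator, and *PR1*, *PR2* (a beta-1,3-glucanase) and *PR5* (a thaumatin-like protein) are the secreted proteins whose mRNAs are the usual markers of the response. *PAD3* encodes the cytochrome P450 of the last step to camalexin, the main Arabidopsis phytoalexin, and *FMO1* the enzyme that makes N-hydroxypipecolic acid, the signal of systemic resistance.

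Of the 10 genes, *SID2* and *EDS5* were the synthesis genes with the clearest signal at both stages, and *PR5* had the largest difference between genotypes in globular seeds, so the 250 bases before the annotated start of each are shown, 5′ to 3′ on the strand of the gene, from RefSeq TAIR10.1. The capitals mark matches to the W-box, searched as TTGACC or TTGACT on both strands, where WRKY factors bind. The TGA factor core TGACG was also searched on both strands and matched none of these 3 windows.
SID2, chr1:28070045-28070294, plus strand: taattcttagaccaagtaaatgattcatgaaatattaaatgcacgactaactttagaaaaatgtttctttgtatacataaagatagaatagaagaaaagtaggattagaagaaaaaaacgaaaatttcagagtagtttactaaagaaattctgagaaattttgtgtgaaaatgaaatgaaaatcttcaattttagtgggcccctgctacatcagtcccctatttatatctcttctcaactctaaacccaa
EDS5, chr4:18185187-18185436, plus strand: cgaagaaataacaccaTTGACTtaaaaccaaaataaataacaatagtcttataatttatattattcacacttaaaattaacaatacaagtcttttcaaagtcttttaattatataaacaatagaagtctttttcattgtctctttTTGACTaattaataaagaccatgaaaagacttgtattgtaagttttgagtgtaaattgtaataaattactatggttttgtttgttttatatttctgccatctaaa
PR5, chr1:28177420-28177669, plus strand: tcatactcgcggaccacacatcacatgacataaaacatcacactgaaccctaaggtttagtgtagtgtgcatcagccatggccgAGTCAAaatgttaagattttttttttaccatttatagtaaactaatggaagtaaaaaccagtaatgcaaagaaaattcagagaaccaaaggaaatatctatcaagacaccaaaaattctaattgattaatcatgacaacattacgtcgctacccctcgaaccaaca

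The *EDS5* window holds 2 W-box matches, 234 and 105 bases before the start, the *PR5* window 1 at 166 bases, and the *SID2* window 0. Over the 10 genes, 3 windows hold a W-box match (*PR5*, *EDS1* and *EDS5*) and 0 hold TGACG. Of 27443 protein-coding windows of the same length, 28.4% hold the W-box and 18.6% hold TGACG. The genes themselves lie on chromosome 2 (*PR1*, 6241640 to 6242541), chromosome 1 (*FMO1*, 6650476 to 6653195; *NPR1*, 23852748 to 23855658; *SID2*, 28070295 to 28074177; *PR5*, 28177670 to 28179022), chromosome 3 (*PAD3*, 9887917 to 9889791; *EDS1*, 17755329 to 17758147; *PAD4*, 19431095 to 19434450; *PR2*, 21188397 to 21189967) and chromosome 4 (*EDS5*, 18185437 to 18189224). *EDS5* and *NPR1* overlap genes of the opposite strand by at most 213 and 214 bases, and reads were counted in sense. *EDS1* lies beside AT3G48080, whose longest transcript is 85.3% identical to that of *EDS1* over 2114 aligned bases, with identical runs of up to 72 bases, so reads may be divided between these genes.

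The transcript of *VEL3* itself served to check the genotype labels. In globular seeds it had 9.79, 8.30 and 13.0 TPM in the libraries labelled *vel3-1*, against 1.34, 1.99 and 2.23 TPM in Col-0, which goes against a loss of transcript, and directions at this stage are given for the libraries labelled *vel3-1*. In 24HAI endosperm it had at most 0.160 TPM in *vel3-1* and was listed at 0 in Col-0. The globular columns are tied to genotypes but not to single samples, because their names lack the day that the labels of those samples give and, punctuation aside, are the names of 24HAI samples. *vel3-1* library 3 of the globular seeds stands apart. In this library the median of 4202 nuclear genes that are at 0 TPM in all 24HAI libraries, called silent genes here, was 10.0 TPM, while it was 1.43 and 0.322 TPM in *vel3-1* libraries 1 and 2 and 0.317 to 0.614 TPM in Col-0. All 5 early endosperm markers were above 0 in globular seeds, with summed levels of 142 to 231 TPM in *vel3-1* and 63.9 to 82.5 TPM in Col-0. They differed in direction. *PHE1* averaged 130 TPM in *vel3-1* and 22.9 TPM in Col-0 and was called higher (2.39, adjusted p = 7.19e-35 in limma), as was *AGL62* (1.80, adjusted p = 0.00180), while *ZOU* averaged 7.07 TPM in *vel3-1* and 14.5 TPM in Col-0 (-0.99, adjusted p = 0.0191), and *FWA* and *IKU2* did not pass. The adjusted p of *PHE1*, *AGL62* and *ZOU* was under 0.05 in 16, 12 and 10 of 17 alternatives. With limma without the trend it was 0.148, 0.191 and 0.50. The part of the early endosperm markers in the differences below was not tested. In such bulk samples fewer cells of a type and less RNA per cell cannot be told apart. The 4 seed coat markers summed to 384 to 795 TPM in *vel3-1* and 617 to 665 TPM in Col-0. In 24HAI libraries the 2 mature endosperm markers summed to 17906 to 20482 TPM in *vel3-1* and 16135 to 20111 TPM in Col-0, nearly all of it *EPR1*.

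In globular seeds, 0 of the 10 genes passed the test, and *vel3-1* library 3 was the highest library of every one of them. *PR1* had 2.14, 0.663 and 5.55 TPM in the libraries labelled *vel3-1*, against 0, 0.318 and 0.387 TPM in Col-0. *PR2* had 2.90, 0.506 and 8.45 TPM in *vel3-1*, against 0.280, 0.233 and 0.142 TPM in Col-0. *PR5* had 3.52, 1.64 and 9.82 TPM in *vel3-1*, against 0.567, 0.0525 and 0.255 TPM in Col-0. In each of these 3 defence markers the groups did not overlap, library 3 was the highest and library 2 the lowest of *vel3-1*. The difference on the log2(TPM + 1) scale, which understates changes of low genes, was 1.41 for *PR1* (standard error 1.11), 1.65 for *PR2* (1.04) and 1.99 for *PR5* (0.90). The adjusted p from limma was 0.548, 0.537 and 0.335 in the same order, and the exact two-sided permutation test gave p = 0.1 for each, the smallest that 3 against 3 libraries allow. *PR5* was the only one of the 10 genes with an unadjusted p under 0.05 in limma (0.0267), which 11.3% of all tested genes had.

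Separation of the groups was common at this stage. All 3 *vel3-1* libraries lay above all Col-0 libraries in 3 of the 10 genes, in 20.0% of the 26593 genes tested and in 18.6% of the silent genes, and below in 0 of the 10 and in 3.97% of all tested. Genes were called changed where the adjusted p was under 0.05 and the difference on the log2(TPM + 1) scale was at least 1 in size, called the 2-fold minimum here, which 1.71% of tested genes reached upward and 0.369% downward. *PR1* averaged 2.78 ± 2.51 TPM in *vel3-1* and 0.235 ± 0.206 TPM in Col-0 (SD, n = 3 each), which placed it at the 3.69th percentile of all listed genes in *vel3-1* and at the 5.17th in Col-0.

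**Figure D1:**
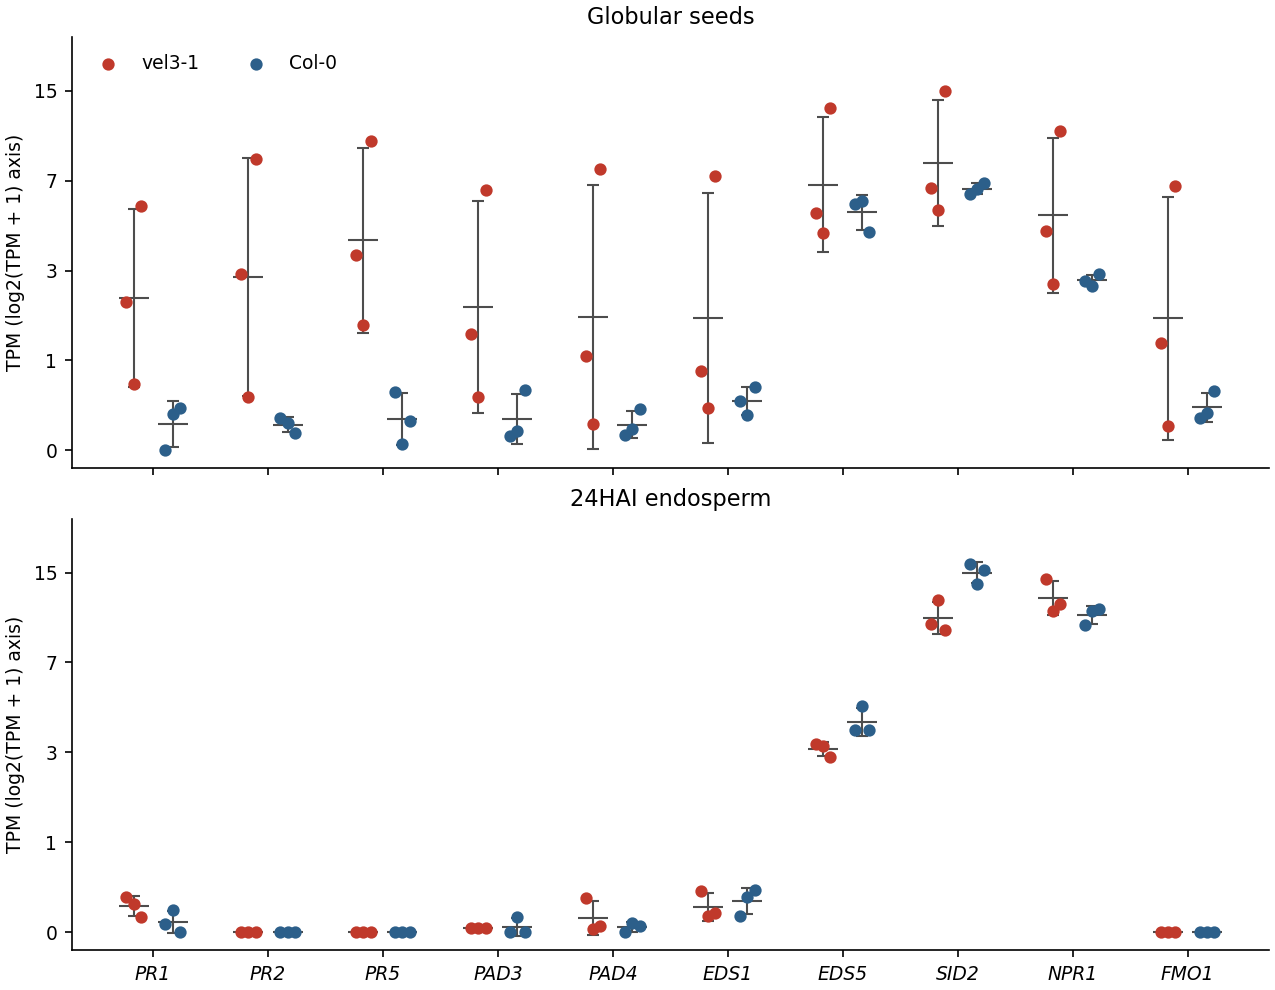
TPM of the 10 genes in each library of globular seeds (top) and 24HAI endosperm (bottom), *vel3-1* in red to the left of Col-0 in blue, with mean and SD of log2(TPM + 1) over 3 libraries as bars; the axis is log2(TPM + 1), labelled in TPM. In globular seeds *vel3-1* library 3 is the highest point of every gene, and in 24HAI endosperm 7 genes lie under 1 TPM while *SID2* is lower in all 3 *vel3-1* libraries.

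The remaining low genes followed the same order of libraries with overlapping groups. *PAD3* had 1.46, 0.505 and 6.46 TPM in *vel3-1*, against 0.116, 0.162 and 0.589 TPM in Col-0. *PAD4* had 1.07, 0.221 and 7.72 TPM in *vel3-1*, against 0.122, 0.178 and 0.371 TPM in Col-0. *EDS1*, its partner, had 0.85, 0.391 and 7.32 TPM in *vel3-1*, against 0.459, 0.315 and 0.629 TPM in Col-0. In all 3 genes *vel3-1* library 2 lay within the Col-0 range and library 3 was several times above every other library. *FMO1* had 1.29, 0.208 and 6.66 TPM in *vel3-1*, against 0.288, 0.330 and 0.583 TPM in Col-0, so that library 2 was the lowest of the 6. The differences were 1.25 for *PAD3*, 1.2 for *PAD4*, 0.93 for *EDS1* and 0.99 for *FMO1* on the log2(TPM + 1) scale, with standard errors from 1.1 to 1.2 and adjusted p from 0.552 to 0.584 in limma.

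The 2 synthesis genes and *NPR1* were the members with a level above the silent genes in Col-0. *SID2* had 6.55, 5.39 and 14.9 TPM in *vel3-1*, against 6.23, 6.51 and 6.85 TPM in Col-0. *EDS5* had 5.22, 4.34 and 13.0 TPM in *vel3-1*, against 5.67, 5.84 and 4.38 TPM in Col-0. *NPR1* had 4.43, 2.59 and 10.7 TPM in *vel3-1*, against 2.69, 2.55 and 2.88 TPM in Col-0. In all 3 the groups overlapped, and library 3 was above and library 2 close to or below the Col-0 libraries. The differences were 0.28 for *SID2* (95% interval -0.39 to 0.95), 0.31 for *EDS5* (-0.45 to 1.07) and 0.72 for *NPR1* (-0.30 to 1.75), with adjusted p of 0.587, 0.597 and 0.548 in limma. Without *vel3-1* library 3 they were -0.11, -0.12 and 0.25, so the sign of *SID2* and *EDS5* turned.

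The 7 low genes were set beside the silent genes of the same library. In *vel3-1* library 3 they lay at 5.55 to 9.82 TPM, below the silent-gene median of 10.0 TPM. *PR1* exceeded 4.57% of silent genes there, *PR2* 25.8% and *PR5* 46.7%, while *PAD3* exceeded 7.12%, *FMO1* 7.85%, *EDS1* 12.6% and *PAD4* 16.3%. The 3 PR genes, *PAD3* and *PAD4* stood higher among silent genes in the other *vel3-1* libraries than in Col-0, while *EDS1* and *FMO1* overlapped with Col-0. *PR5* exceeded 81.1% of them in library 1 and 85.4% in library 2, against 67.8%, 9.0% and 17.3% in the Col-0 libraries. *PR1* exceeded 66.6% and 70.9%, against 0%, 42.3% and 29.1% in Col-0. *PR2* exceeded 76.6% and 64.5%, against 46.5%, 29.8% and 10% in Col-0. *PAD3* exceeded 50.7% and 64.4%, against 29.6%, 19.7% and 47.6% in Col-0, and *PAD4* 36.5% and 38.1%, against 30.3%, 21.8% and 27.2%. *SID2* by contrast exceeded 87.5 to 91.9% of silent genes in *vel3-1* libraries and 93.5 to 94.4% in Col-0 libraries.

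**Figure D2:**
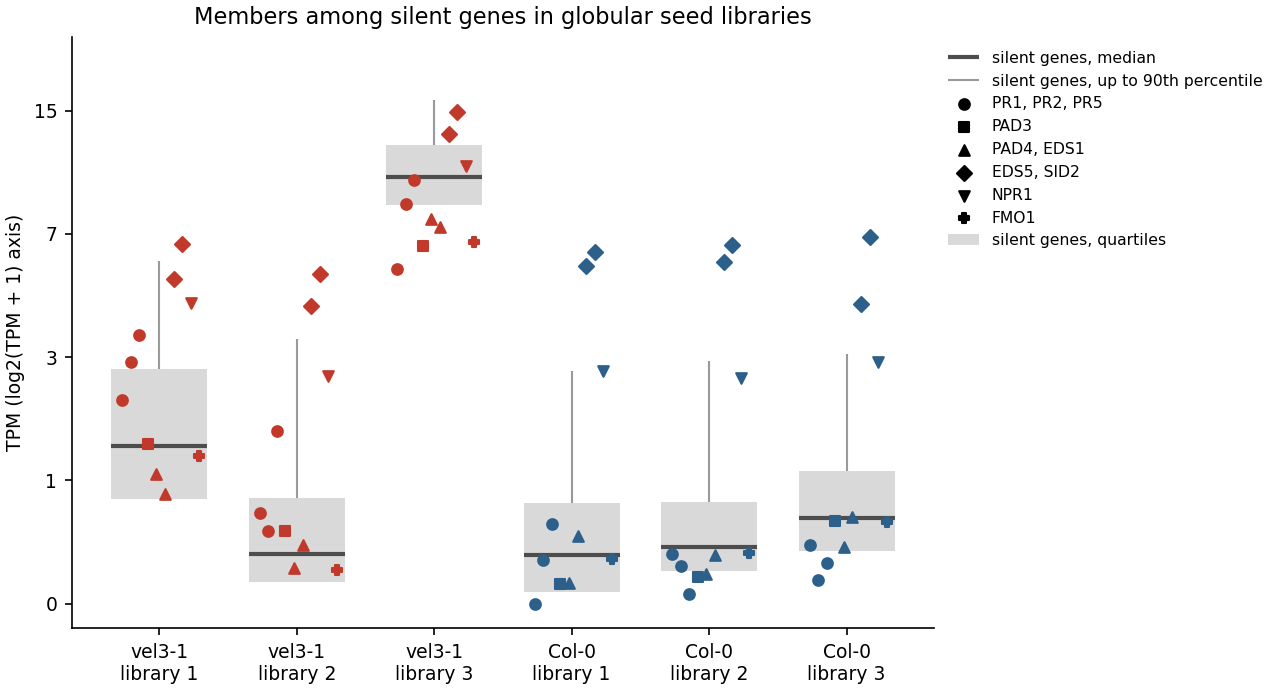
TPM of the 10 genes (symbols by role; *vel3-1* red, Col-0 blue) in each globular library on a log2(TPM + 1) axis, over the quartiles, median and 90th percentile of 4202 silent genes in grey. The silent genes lie at a median of 10.0 TPM in *vel3-1* library 3 and at 0.317 to 1.43 TPM elsewhere, and in library 3 the 7 low genes lie below that median.

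The median difference of the 10 genes was 1.09, against 0.50 over all 26593 genes tested and 1.14 over 4055 silent genes that passed the filter of a mean of at least 1 TPM. All 10 genes passed that filter, and for the 7 low ones *vel3-1* library 3 supplied most of the mean. With quantile normalization the medians became -0.01 for the 10 genes and -0.02 for all genes. Without *vel3-1* library 3 and with the same genes kept, the median of the 10 fell to 0.32, against 0.17 over all genes and 0.28 over silent genes. In that setting *PR5* was at 1.44 (adjusted p = 0.060 in limma), *PR2* at 0.99 (0.294) and *PR1* at 0.90 (0.298), and *EDS1*, *FMO1*, *PAD4* and *PAD3* were at 0.13, 0.25, 0.38 and 0.60. With the filter applied again without this library, *PR5* had an adjusted p of 0.115 in limma, and *PR1* and *PR2* were not tested. All 7 low genes averaged under 1 TPM in Col-0 and were tested only through their *vel3-1* level, so they had to differ to be tested. After subtraction of each library's silent-gene median, 3 of the 10 genes still averaged at least 1 TPM, with differences of -0.24 for *SID2*, -0.35 for *EDS5* and -0.22 for *NPR1*, against -0.21 over all genes tested.

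**Figure D3:**
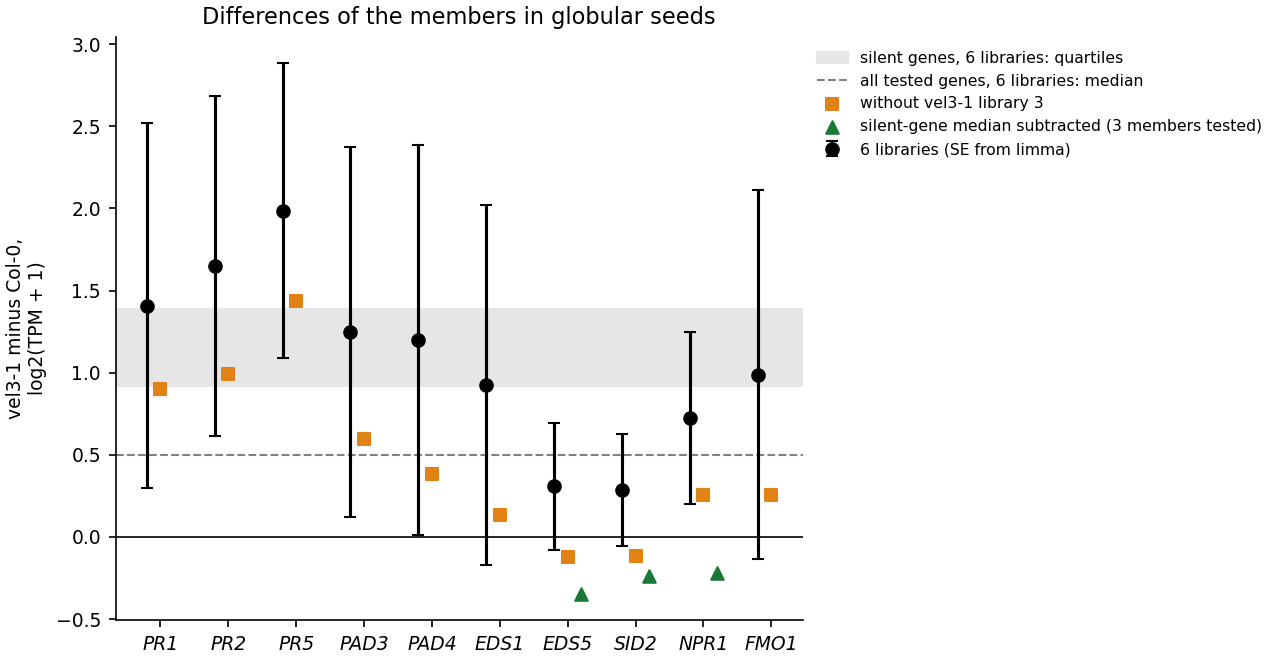
Difference of *vel3-1* minus Col-0 on the log2(TPM + 1) scale for the 10 genes in globular seeds, from 6 libraries with standard errors from limma (black), without *vel3-1* library 3 (orange squares) and after subtraction of the silent-gene median (green triangles). The dashed line is the median of all tested genes, 0.50, and the grey band the quartiles of silent genes; *SID2*, *EDS5* and *NPR1* are below 0 after subtraction.

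In 24HAI endosperm the same 10 genes split into 7 that were near or at 0 TPM and 3 that averaged at least 1 TPM. *PR2*, *PR5* and *FMO1* were listed at 0 in all 6 libraries. *PR1* had 0.314, 0.246 and 0.128 TPM in *vel3-1*, against 0.0633, 0.187 and 0 TPM in Col-0, and the groups overlapped. *PAD3* was at 0.0318, 0.0312 and 0.0324 TPM in *vel3-1*, against 0, 0.127 and 0 TPM in Col-0. *PAD4* was at 0.301, 0.0246 and 0.0510 TPM in *vel3-1*, against 0, 0.0750 and 0.0505 TPM in Col-0, and *EDS1* at 0.377, 0.130 and 0.158 TPM in *vel3-1*, against 0.134, 0.309 and 0.379 TPM in Col-0. These 7 genes averaged under 1 TPM and were not tested, and no separation of the genotypes was seen in any of them.

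Of the 3 genes tested at this stage, *SID2* was past the adjusted threshold, with a lower level in *vel3-1*, and *EDS5* and *NPR1* were not. *SID2* had 9.78, 12.0 and 9.29 TPM in *vel3-1*, against 16.1, 13.6 and 15.3 TPM in Col-0. Every *vel3-1* library lay below every Col-0 library, with 10.3 ± 1.43 TPM in *vel3-1* and 15 ± 1.30 TPM in Col-0 (SD, n = 3 each). The difference was -0.50 on the log2(TPM + 1) scale (standard error 0.12, 95% interval -0.78 to -0.22, adjusted p = 0.0432 in limma). It is under the 2-fold minimum, so *SID2* was not counted as called. Over 15 alternative settings the difference stayed between -0.60 and -0.43, and its adjusted p between 0.0144 and 0.176, under 0.05 in 6 of them. It was 0.0533 without the trend, 0.0592 with median-ratio scaling and 0.0762 with quantile normalization. It was 0.150 and 0.163 without *vel3-1* replicate 1 or 3, and 0.106 and 0.176 without Col-0 replicate 1 or 3. *EDS5* had 3.25, 3.21 and 2.87 TPM in *vel3-1*, against 3.73, 4.71 and 3.75 TPM in Col-0. All *vel3-1* libraries were again below, at a difference of -0.30 (standard error 0.13, 95% interval -0.60 to 0.005, adjusted p = 0.237). *NPR1* had 14.3, 10.9 and 11.6 TPM in *vel3-1*, against 9.67, 10.9 and 11.1 TPM in Col-0, with overlapping groups and a difference of 0.19 (-0.09 to 0.47, adjusted p = 0.415).

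All 3 *vel3-1* libraries lay below all Col-0 libraries in 2 of the 3 genes tested at 24HAI, and in 14.5% of the 15918 genes tested at this stage, and above in 0 of 3 and in 12.5% of all tested. At an adjusted p under 0.05 with no fold minimum, 4.66% of all tested genes were higher and 2.94% lower, and with the 2-fold minimum 1.70% and 0.697%. The median difference over all tested genes was close to 0 (-0.002). Other markers also moved with the genotype here. *WOX2*, an embryo marker, had 21.4, 21.9 and 19.7 TPM in *vel3-1*, against 33.4, 41.0 and 31.9 TPM in Col-0 (adjusted p = 0.00702 in limma). The 5 embryo markers summed to 20.8 to 23.5 TPM in *vel3-1* and 34.3 to 43.3 TPM in Col-0, nearly all of it *WOX2*, with 4 of them under 1 TPM. *PLT1* and *PLT2* averaged 0.348 and 0.351 TPM in *vel3-1*, against 0.982 and 0.691 TPM in Col-0. *STM* lay the other way, at 0.519 TPM in *vel3-1* and 0.344 TPM in Col-0, and *WOX8* was near 0. The smaller mature endosperm marker *MAN7* had 114, 87.0 and 76.6 TPM in *vel3-1*, against 15.7, 58.7 and 28.4 TPM in Col-0, and was called higher (1.58, adjusted p = 0.0464 in limma, under 0.05 in 6 of 15 alternatives). The 4 seed coat markers summed to 12.4 to 14.5 TPM in *vel3-1* and 8.78 to 12.7 TPM in Col-0. Their part in the *SID2* difference was not tested, as for the endosperm markers of globular seeds.

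A list of 54 other genes of the pathways was read in the same fits, of which 35 averaged at least 1 TPM in 24HAI endosperm. Of these, 2 were called higher and 0 lower, and with no fold minimum 4 were higher and 4 lower; 15 had an unadjusted p under 0.05, against 21.8% of all tested genes. Their median difference was -0.06, against -0.002 over all genes. All *vel3-1* libraries lay above all Col-0 libraries in 8 of the 35 genes and below in 9, where the shares over all tested genes were 12.5% and 14.5%. *NIMIN1* and *CYP71A13* averaged under 1 TPM in Col-0 and were tested only through their *vel3-1* level, so they had to differ to be tested, and 1 of the 2 calls is *NIMIN1*.

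Of the 9 genes of synthesis in this list, 4 were tested and 1, *PAL1*, passed the adjusted threshold. All 4 had negative differences, as did 8026 of the 15918 genes tested. *PAL1*, a phenylalanine ammonia-lyase of the alternative route, had 6.45, 6.41 and 7.97 TPM in *vel3-1*, against 9.62, 10.7 and 13.6 TPM in Col-0, a difference of -0.62 (adjusted p = 0.0387). That p was under 0.05 in 10 of 15 alternatives and was 0.0728 with no filter on low values, 0.140, 0.138 and 0.0671 without *vel3-1* replicate 1, 2 or 3 and 0.161 without Col-0 replicate 3. *PBS3*, which conjugates isochorismate with glutamate, had 4.15, 3.32 and 2.92 TPM in *vel3-1*, against 6.08, 3.47 and 6.54 TPM in Col-0, with overlapping groups (-0.48, adjusted p = 0.231). *PAL2* and *PAL4* were at -0.44 and -0.40 (adjusted p = 0.123 and 0.0698), each with all *vel3-1* libraries below. The regulators of *SID2* transcription were too low to test and lay the other way. *CBP60g* was at 1.05, 0.625 and 0.549 TPM in *vel3-1*, against 0.247, 0.464 and 0.346 TPM in Col-0. *SARD1* was at 1.49, 0.601 and 0.648 TPM in *vel3-1*, against 0.286, 0.353 and 0.356 TPM in Col-0. In both, every *vel3-1* library was above every Col-0 library. *ICS2*, the second isochorismate synthase, did not exceed 0.0548 TPM in any library.

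*UGT76B1*, a glucosyltransferase known to conjugate salicylic acid and N-hydroxypipecolic acid, was the clearest difference of the list. It had 14.6, 15.2 and 14.9 TPM in *vel3-1*, against 5.87, 7.30 and 6.91 TPM in Col-0, a difference of 1.05 (standard error 0.11, adjusted p = 0.00118). Its adjusted p stayed under 0.05 in 15 of 15 alternatives, and without Col-0 replicate 1 the difference was 0.98, under the 2-fold minimum. *DMR6*, a salicylic acid hydroxylase, had 11.6, 13.9 and 11.8 TPM in *vel3-1*, against 11.7, 8.62 and 10.6 TPM in Col-0, with overlapping groups (0.25, adjusted p = 0.317). Of the 7 genes of turnover, 4 were tested and 1 was called.

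Of the 11 receptors and partners of NPR1, all tested, 1 passed the adjusted threshold upward and 2 downward, and *NIMIN2*, *NIMIN3*, *TGA2*, *TGA3*, *TGA5* and *TGA6* were among the 8 that did not pass. *NIMIN1*, whose protein binds NPR1 and restrains *PR1* expression, had 2.0, 2.76 and 2.22 TPM in *vel3-1*, against 0.916, 0.814 and 0.0914 TPM in Col-0, a difference of 1.09 (standard error 0.23, adjusted p = 0.0281). Its adjusted p rose to 0.0797 with a pseudocount of 0.1 TPM, to 0.0793, 0.125 and 0.0950 without *vel3-1* replicate 1, 2 or 3, and to 0.0703 without Col-0 replicate 3. *TGA4*, a bZIP factor that binds NPR1, had 7.30, 7.36 and 7.55 TPM in *vel3-1*, against 10.4, 14.1 and 12.2 TPM in Col-0 (-0.65, adjusted p = 0.0170). *TGA1* had 31.3, 32.1 and 32.9 TPM in *vel3-1*, against 43.5, 39.7 and 44.1 TPM in Col-0 (-0.39, adjusted p = 0.0250). The p of *TGA4* was under 0.05 in 10 of 15 alternatives and that of *TGA1* in 9 of 15. Both exceeded it without any single *vel3-1* replicate, at 0.0649 to 0.0697 for *TGA4* and 0.0806 to 0.0986 for *TGA1*, and without Col-0 replicate 3, at 0.0856 and 0.142; *TGA1* was also at 0.0681 without Col-0 replicate 1. The 2 other salicylic acid receptors did not pass. *NPR3* had 201, 156 and 174 TPM in *vel3-1*, against 163, 157 and 177 TPM in Col-0 (0.09, 95% interval -0.16 to 0.34). *NPR4* had 7.86, 8.33 and 7.49 TPM in *vel3-1*, against 5.86, 8.74 and 6.98 TPM in Col-0 (0.13, -0.19 to 0.46). On TPM, a level per length, *NPR1* averaged 12.3 TPM in *vel3-1* and 10.5 TPM in Col-0, and *NPR3* 177 and 165 TPM.

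Partners of EDS1, camalexin genes and further markers were mixed as well. *SAG101*, which binds EDS1 in place of PAD4, had 3.78, 2.94 and 4.0 TPM in *vel3-1*, against 2.18, 2.66 and 2.27 TPM in Col-0; the groups did not overlap (0.44, adjusted p = 0.120). AT3G48080, the neighbour of *EDS1*, did not exceed 0.108 TPM. *NDR1*, needed for resistance through another class of receptors, had 12.0, 8.38 and 7.37 TPM in *vel3-1*, against 16.3, 16.3 and 15 TPM in Col-0 (-0.75, adjusted p = 0.0274). That p was under 0.05 in 10 of 15 alternatives and was 0.0558 with no filter on low values, 0.113 and 0.0983 without *vel3-1* replicate 2 or 3 and 0.0535 and 0.0957 without Col-0 replicate 1 or 3. *CYP71A13*, a cytochrome P450 that acts before *PAD3* in camalexin synthesis, had 2.23, 1.45 and 1.46 TPM in *vel3-1*, against 0.420, 0.830 and 0.229 TPM in Col-0 (0.87, adjusted p = 0.0393). That p was under 0.05 in 8 of 13 alternatives and was 0.101 and 0.0979 without *vel3-1* replicate 2 or 3 and 0.0783 and 0.164 without Col-0 replicate 1 or 3. *WRKY33*, an activator of camalexin genes, had 602, 510 and 466 TPM in *vel3-1*, against 368, 447 and 443 TPM in Col-0 (0.32, adjusted p = 0.177), while *PAD3* itself was at or under 0.127 TPM in all 6 libraries. *PR4*, a chitin-binding protein, had 25.5, 23.4 and 22.2 TPM in *vel3-1*, against 16.9, 8.65 and 10.8 TPM in Col-0 (0.96, adjusted p = 0.0255), just under the 2-fold minimum. That p was under 0.05 in 10 of 15 alternatives and was 0.0550 with no filter on low values, 0.104, 0.0999 and 0.0810 without *vel3-1* replicate 1, 2 or 3 and 0.112 without Col-0 replicate 3. Of the 11 further markers, 8 were under 1 TPM, 4 of them at 0 in all libraries.

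**Figure D4:**
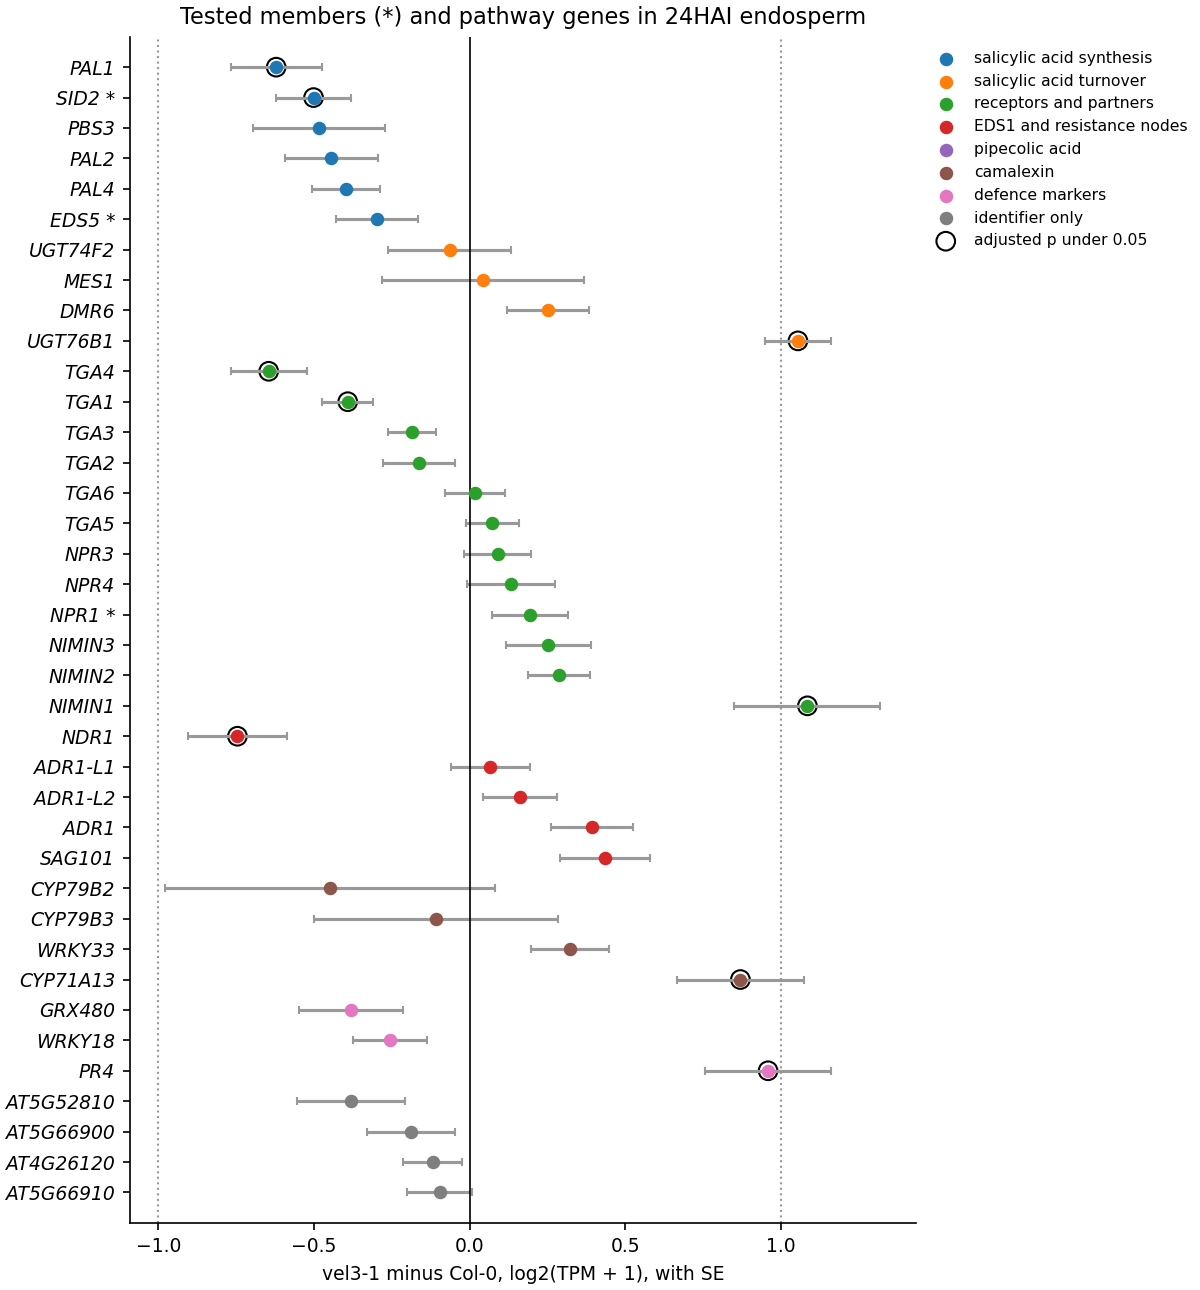
Difference of *vel3-1* minus Col-0 on the log2(TPM + 1) scale, with standard errors from limma, for the 3 tested members (marked with an asterisk) and 35 other pathway genes in 24HAI endosperm, coloured by role; rings mark an adjusted p under 0.05 and dotted lines a 2-fold difference. All 6 synthesis genes tested lie below 0, as do 8026 of the 15918 genes tested, and *UGT76B1* and *NIMIN1* are the 2 genes past the 2-fold line. *CBP60g* and *SARD1*, higher in *vel3-1* but too low to test, are not shown.

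In globular seeds all 54 genes of the wider list passed the filter and 0 were called in either direction. The median difference was 0.80, against 0.50 over all genes and 1.14 over the silent genes tested. The groups were separated upward in 11 and downward in 2 of the 54 genes, close to the 20.0% and 3.97% of all tested genes. Many of the 54, among them *CBP60g*, *SARD1*, *PBS3* and *ICS2*, averaged under 1 TPM in Col-0. Such genes were tested only through their *vel3-1* level, so they had to differ to be tested. *NPR3* was the only gene of the wider list with an adjusted p under 0.05. It had 13.1, 31.7 and 17.4 TPM in the libraries labelled *vel3-1*, against 9.31, 11.8 and 12.2 TPM in Col-0, a difference of 0.76 (standard error 0.24, adjusted p = 0.0425 in limma). That p was under 0.05 in 6 of 17 alternatives; it was 0.136 with no filter on low values, 0.50 without the trend, 0.581 with median-ratio scaling, 0.538 with quantile normalization and 0.839 after subtraction of the silent-gene median. It was 0.205 and 0.162 without *vel3-1* library 2 or 3, and 0.615, 0.248 and 0.194 without Col-0 library 1, 2 or 3. *CBP60g*, *SARD1*, *PBS3*, *ICS2* and AT3G48080 were at or under 1.54 TPM in every library but *vel3-1* library 3, where they lay between 7.25 and 12.6 TPM. *CYP71A13* had 2.34, 0.467 and 8.29 TPM in *vel3-1*, against 0.231, 0.461 and 0.420 TPM in Col-0 (1.39, adjusted p = 0.548), and *UGT76B1* 0.696, 0.230 and 8.79 TPM in *vel3-1*, against 0.120, 0.398 and 0.363 TPM in Col-0 (1.09, adjusted p = 0.567). *NIMIN1* had 2.61, 0.720 and 7.60 TPM in *vel3-1*, against 2.66, 1.01 and 1.46 TPM in Col-0 (0.52, adjusted p = 0.631), and the groups overlapped. *SAG101* had 2.79, 2.92 and 9.68 TPM in *vel3-1*, against 1.75, 2.35 and 3.14 TPM in Col-0, and *NPR4* 6.55, 6.48 and 11.9 TPM in *vel3-1*, against 6.65, 6.97 and 6.52 TPM in Col-0, both with overlapping groups.

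The 2 stages were normalized separately, so levels are set side by side without a test. In Col-0, *SID2* averaged 6.53 ± 0.309 TPM in globular seeds and 15 ± 1.30 TPM in 24HAI endosperm, *NPR1* 2.71 ± 0.167 and 10.5 ± 0.759 TPM, and *EDS5* 5.30 ± 0.800 and 4.07 ± 0.560 TPM (SD, n = 3 each). *SID2* stood at the 53.7th percentile of all listed genes in globular seeds and the 72.1st in 24HAI endosperm. At both stages the order was *SID2* highest of the 10 genes in Col-0, and the other 7 genes were under 1 TPM on average. In globular seeds *SID2* and *EDS5* came first with Col-0 ranges of 6.23 to 6.85 and 4.38 to 5.84 TPM that did not overlap, followed by *NPR1* with 2.55 to 2.88 TPM. In 24HAI endosperm *SID2* (13.6 to 16.1 TPM), *NPR1* (9.67 to 11.1 TPM) and *EDS5* (3.73 to 4.71 TPM) were likewise separated.

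**Figure D5:**
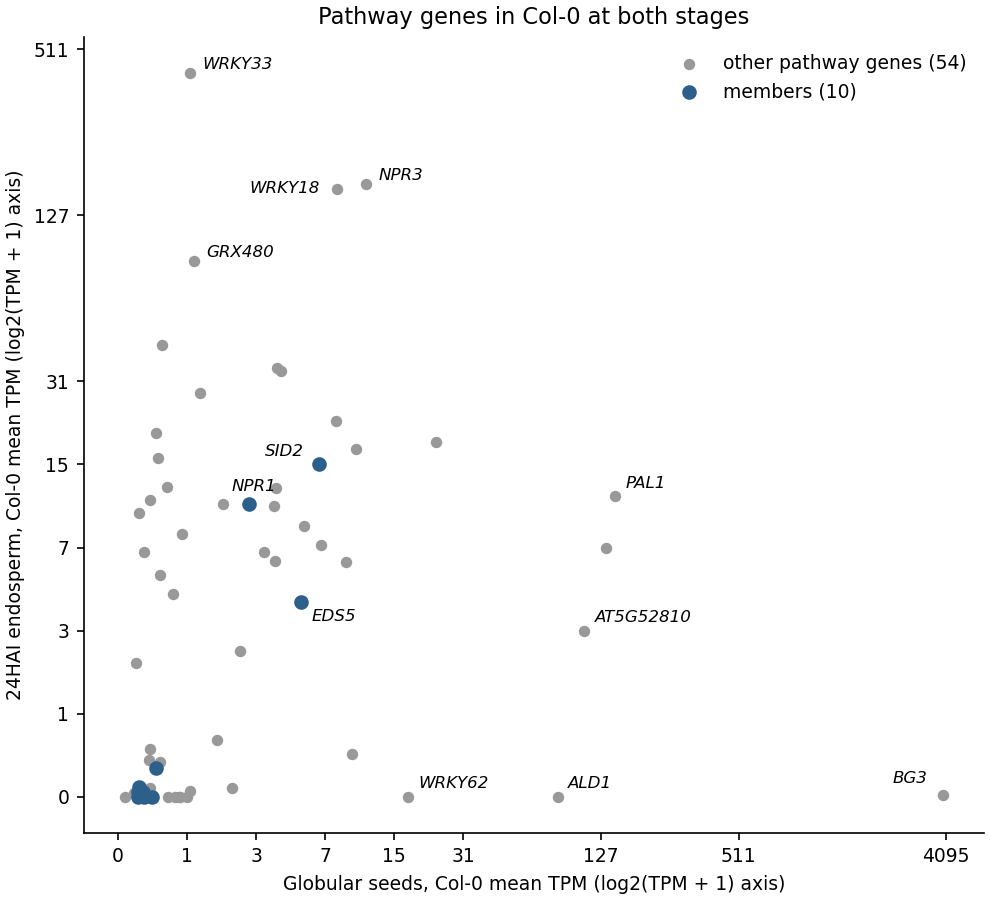
Mean TPM over 3 Col-0 libraries in globular seeds (x axis) and 24HAI endosperm (y axis) for the 10 members (blue) and 54 other pathway genes (grey), both on log2(TPM + 1) axes labelled in TPM. *SID2*, *EDS5* and *NPR1* stand apart from the other 7 members, which lie near the origin, and *BG3*, *ALD1* and *WRKY33* lie close to 1 axis each.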

How the data were processed

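RNA-seq was used from 12 of the 18 libraries, and the 20 ChIP-seq samples were not used here. The authors deposited TPM per gene, made from polyA reads trimmed with cutadapt 1.9.1, mapped to TAIR10 with STAR 2.5 and counted in sense per gene with featureCounts, and called changes with edgeR; how TPM were derived is not given in the sources used here. Columns of globular seeds were tied to groups but not to replicate numbers, since their names differ from the labels of those samples and, punctuation aside, are those of 24HAI samples. Within each stage, limma 3.58.1 (R 4.3.3), with the variance modelled as a trend of the level, compared log2(TPM + 1) of genes that averaged 1 TPM or more. Benjamini-Hochberg adjustment covered all tested genes, and calls required 0.05 and a difference of at least 1 on that log2 scale; no test on counts was run. In globular seeds the standard errors rest on the spread of genes of similar level, since the fitted prior was unbounded. Precision comes from 3 libraries per group. In 24HAI endosperm limma p-values combine a gene's own spread between libraries with that of genes of similar level. In globular seeds a gene's own spread does not enter them. The fit was tested on data with known changes of 1.5 or 2 on the log2 scale, in 100 genes for each size and stage. In globular seeds 65 and 79 of them were recovered in this order, and in 24HAI endosperm 97 and 97. Both sizes were placed in the same fit of each stage, and other genes called in that fit were 4 in globular seeds and 1 in 24HAI endosperm. The changed genes were drawn only from genes that averaged at least 5 TPM in Col-0, so recovery for the low genes was not tested. The members and lists were chosen with earlier results of these data known. Named are all 10 members, wider-list genes past the call threshold, 10 wider-list genes given by name and *VEL3*; the other wider-list genes given with values were chosen after their values were seen. Positions and sequences come from RefSeq TAIR10.1, read with Biopython 1.88 and Python 3.11.15; plots used matplotlib 3.10.9. Alternatives were another pseudocount, filters, scalings, variance models, a replicate block, each library left out and subtraction of the silent-gene median. Leaving out *vel3-1* library 3 with the same genes kept, and a block by column number there, were added after seeing the data.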

Additional observations from a re-analysis of the deposited data

Results flagged for a closer look

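*NIMIN1* is also listed in mature endosperm after 1 h of imbibition, data that the comparisons above do not use. There it had 16.3, 14.6 and 29.3 TPM in *vel3-1*, a mean of 20.1 TPM, against 10.9, 11.2 and 10.7 TPM in Col-0, and every *vel3-1* library was above every Col-0 library. The 640 genes listed for that stage are a selected set, so this is a description with no test.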

How the results depend on the processing

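In globular seeds the members tested had 0 calls in either direction under every setting run. All 10 were tested in most settings. With a mean of at least 5 TPM 2 were tested, after subtraction of the silent-gene median 3, and without *vel3-1* library 3 4, unless the same genes were kept. The median difference over all genes was 0.50 on the deposited scale, 0.10 with median-ratio scaling and -0.02 when quantiles were matched. Over all genes, 454 were called higher and 98 lower, 82.2% of calls being higher. Median-ratio scaling gave 166 lower, 1 of them in the wider list, with *EDS5* at -0.0791 and *SID2* at -0.11. Quantile normalization gave 196 higher and 62 lower, with *EDS1* at -0.20, *EDS5* at -0.23, *SID2* at -0.0935, *NPR1* at -0.18, *FMO1* at -0.17, *UGT76B1* at -0.0183 and *NIMIN1* at -0.60. Without the trend limma called 0 higher and 0 lower, with 2034 genes at an unadjusted p under 0.05. With no fold minimum 269 were lower, 68.6% of calls were higher, and 1 wider-list gene was higher. Subtraction of the silent-gene median gave 154 higher (67.5% of calls), with *EDS5* at -0.35, *SID2* at -0.24 and *NPR1* at -0.22. With each globular library left out in turn, 331 to 818 genes were higher, 79 to 131 lower and 0 to 1 wider-list genes higher, and *EDS5* ranged from -0.12 to 0.58, *SID2* from -0.11 to 0.54 and *NIMIN1* from -0.0748 to 1.09; the low end of these 3 genes came without *vel3-1* library 3, and 818 without *vel3-1* library 2.

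In 24HAI endosperm 271 genes were called higher and 111 lower. A mean of at least 5 TPM gave 134 and 70, with 1 wider-list gene higher, since fewer genes were tested. Without chloroplast and mitochondrial genes 63 were lower, and 81.2% of calls were higher, against 70.9%. With no fold minimum 741 were higher and 468 lower, 1 member was lower, and 4 wider-list genes were higher and 4 lower. With each library left out in turn, 179 to 474 were higher, 66 to 119 lower and 1 to 3 wider-list genes higher; 474 came without Col-0 replicate 2, and 179 and 66 without *vel3-1* replicate 1. The wider list had 1 call without *vel3-1* replicate 1, 2 or 3 or Col-0 replicate 3, and 3 without Col-0 replicate 2. With a pseudocount of 0.1 TPM *NIMIN1* was at 2.10. Deviations of same-numbered libraries from their group means correlated at -0.39, 0.02 and 0.22. Deviations within a group are tied to each other, so these values cannot decide whether same-numbered libraries were handled together. With the replicate number as a block 243 were higher and 119 lower, and *SID2* had an adjusted p of 0.133. *PAL1*, *NDR1*, *UGT76B1*, *NIMIN1* and *PR4* stayed under 0.05 with the block, and *TGA1*, *TGA4* and *CYP71A13* were at 0.102, 0.0539 and 0.0842. The numbers in the globular column names are not tied to samples (same-number correlations 0.07, 0.18 and 0.31), and a replicate block on them, added after seeing the data, gave 431 higher and 97 lower. TPM give no depth, so differences of genes near 0 TPM could not be judged. The cause of these shifts was not tested.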

Other observations

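In globular seeds several genes of these pathways were abundant while the members next to them were not. *BG3*, a beta-1,3-glucanase whose longest transcript is 73.9% identical to that of *PR2* over 1344 aligned bases, had 3572, 4455 and 2625 TPM in *vel3-1*, against 4176, 3944 and 3809.6 TPM in Col-0, where *PR2* did not exceed 0.280 TPM in Col-0. *ALD1*, which starts the route to N-hydroxypipecolic acid, had 73.9, 128 and 62.2 TPM in *vel3-1*, against 80.3, 87.4 and 78.4 TPM in Col-0, while *FMO1* of the same route did not exceed 0.583 TPM in Col-0. Both genes overlapped between the genotypes. AT5G52810 had 79.7, 90.8 and 58.6 TPM in *vel3-1*, against 104, 101 and 117 TPM in Col-0 (difference -0.51, adjusted p = 0.208 in limma). *WRKY62* had 7.77, 9.0 and 16 TPM in *vel3-1*, against 17.3, 16.9 and 18.3 TPM in Col-0 (-0.69, adjusted p = 0.112 in limma). Without *vel3-1* library 3 its difference was -0.98, with an adjusted p from limma of 0.00262, or 0.00455 with the same genes kept. All *vel3-1* libraries lay below Col-0 in AT5G52810 and *WRKY62*, in 1 of them with library 3 as the highest of *vel3-1*.

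In 24HAI endosperm other genes of these pathways were the abundant ones. *BG3* did not exceed 0.0822 TPM, *ALD1* had 0.0360 TPM in 1 *vel3-1* library and was listed at 0 in the other 5, and *WRKY62* was listed at 0 in all 6. *GRX480*, a glutaredoxin induced by salicylic acid in leaves, had 75.7, 74.3 and 50.5 TPM in *vel3-1*, against 73.6, 96.2 and 89.7 TPM in Col-0, and *WRKY18* had 118, 152 and 130 TPM in *vel3-1*, against 139, 170 and 169 TPM in Col-0. Both overlapped between the genotypes. *PR1*, *PR2* and *PR5* were at or near 0 in the same libraries.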
